A study of Caenorhabditis elegans with 16 samples.

Results

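The 10 genes described here encode Argonautes of the small RNA pathways of the nematode Caenorhabditis elegans: alg-1, alg-2, alg-3, alg-4, prg-1, csr-1, ergo-1, rde-1, hrde-1 and nrde-3. They were chosen by name, by matching the gene IDs of the count table to the symbols of the WBcel235 annotation, and the rule uses no measured value, but earlier results of these data were known when the names were chosen. All 10 had an ID, which makes them 10 of the 21882 genes in the table, and all 10 passed the filter on low counts.

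Argonautes are proteins that hold a short guide RNA and use it to find matching transcripts, which are then cut, held back from translation, silenced in the nucleus or, in some pathways, protected. C. elegans has a large Argonaute family. Its members differ in the class of small RNA they bind (microRNAs, piRNAs, primary siRNAs or the secondary siRNAs that RNA-dependent RNA polymerases copy from a target) and in the cells where they act, many of them in the germline.

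Messenger RNA was sequenced from whole animals of the wild-type strain N2 Bristol, grown on NGM plates at 20 °C. There were 4 groups of 4 libraries each: at each of the 2 ages, young adult and day 8, some animals had free access to food and others went without it for 6 h. According to the series description, the interest was in genes whose response to fasting in young animals is missing in old ones. No transgene or mutation is named in any group, and the sources do not say whether libraries 1 to 4 of a group are separate cultures, so a p-value reflects no more than how far these libraries scatter.

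Totals per library lay between 58.4 and 117.7 M counts, where M stands for 1e6. Day 8 libraries 1 and 2 stood apart from day 8 libraries 3 and 4, whether fed or fasted, as described below for each member. By the sample names, young libraries filled 1 column of a plate and day 8 libraries the next, so an effect of age and an effect of the column cannot be told apart. Whole animals were sequenced, so fewer cells of a type and less RNA per cell cannot be told apart either. CPM stands for counts per 1e6 counts of a library after TMM scaling, and levels of different genes are compared only as CPM per kb of exon.

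Per kb of exon, the germline Argonaute gene hrde-1 had the highest level of the 10 in all 4 groups. It held 33.5% of their summed level in fed young adults and 26.2% in fasted ones. In fed young adults hrde-1 (265 ± 4.21 CPM per kb, SD, n = 4) was followed by csr-1 (180 ± 1.31), prg-1 (148 ± 2.76), ergo-1 (89.1 ± 0.926), rde-1 (35.4 ± 0.833) and alg-2 (19.4 ± 0.348), and the ranges of these neighbours did not overlap. Below them, alg-3 (15.4 ± 0.143 CPM per kb) overlapped alg-4 (15.0 ± 0.789), and nrde-3 (12.6 ± 0.311) overlapped alg-1 (11.9 ± 0.443).

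After 6 h without food the order in young adults was hrde-1 (163 ± 1.53 CPM per kb), then prg-1 (133 ± 1.46) and csr-1 (132 ± 1.29), whose ranges overlapped, then ergo-1 (69.8 ± 1.22). The sperm pair alg-3 (31.9 ± 1.26 CPM per kb) and alg-4 (31.6 ± 1.14) stood level with rde-1 (29.8 ± 1.25), and alg-2, alg-1 and nrde-3 came last at 12.2, 10.7 and 8.89 CPM per kb, with ranges apart. At day 8, alg-3 and alg-4 were last in both feeding states, at 0.210 to 0.322 CPM per kb with overlapping ranges of the pair, and nrde-3 had moved up to the fifth place, at 38.5 ± 1.59 CPM per kb in fed and 34.5 ± 2.25 in fasted animals, where its range overlapped that of alg-2 next to it. Among the leading genes at day 8, hrde-1 overlapped prg-1 and prg-1 overlapped ergo-1 in both feeding states. csr-1 came next, at 92.8 ± 24.1 CPM per kb in fed animals, apart from ergo-1, and at 89.2 ± 25.4 in fasted animals, where the 2 overlapped. Within every day 8 library, though, the order was hrde-1, prg-1, ergo-1 and csr-1. Some places depend on the length used. Per kb of coding sequence, an alternative added after the data were seen, alg-1, much of whose exon length is untranslated, ranked 7 and not 10 in fed young adults, and nrde-3 ranked 6 in fed and 7 in fasted day 8 animals and not 5.

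**Figure D1:**
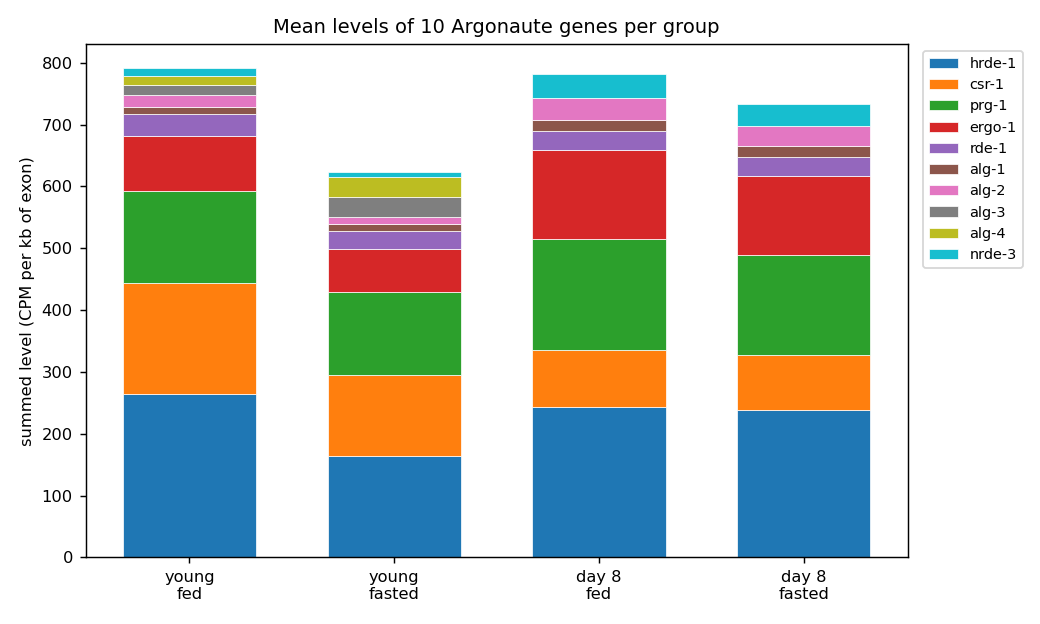
Mean level of each of the 10 Argonaute genes in CPM per kb of exon, stacked within each of the 4 groups (n = 4 libraries each, no error bars drawn). The summed level ran from 780 to 797 CPM per kb in the fed young libraries, 622 to 625 in the fasted young libraries, 633 to 968 in the fed day 8 libraries and 570 to 903 in the fasted day 8 libraries.

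Fasting of young adults was followed by higher levels of the sperm Argonaute genes alg-3 and alg-4 and by lower levels of the other 8. In each of these 10 genes no fasted young library overlapped any fed young library, beside 63.4% of all tested genes without overlap in this comparison (31.8% higher and 31.6% lower). The median log2 fold change of the 10 was -0.30, against 0.03 for all 17844 tested genes. In the model over all 16 libraries 4 members fell, namely alg-2, ergo-1, hrde-1 and nrde-3, beside 21.1% of all tested genes that fell (edgeR quasi-likelihood test, call at a Benjamini-Hochberg adjusted p under 0.05). In the same model 0 members rose, beside 21.2% of all genes. Without adjustment, the 2 higher members and 6 lower ones had p under 0.05, beside 50.9% of all genes. DESeq2 called 0 higher and 5 lower, beside 24.9% and 23.0% of all genes.

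That model uses 1 estimate of the spread of each gene for young and day 8 libraries together, and most members varied far more at day 8. The coefficient of variation of hrde-1 was 1.59% and 0.937% in fed and fasted young libraries and 34.4% and 36.3% in fed and fasted day 8 libraries. In a fit to the 8 young libraries alone, alg-3 and alg-4 rose and the other 8 fell, beside 38.3% of 16139 tested genes that rose and 36.3% that fell. Blocking on the replicate number within each age gave the same counts, 2 higher and 8 lower, beside 32.5% and 32.6% of all genes.

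At day 8 the same fast was followed by no call among the 10: edgeR called 0 members in either direction, beside 0.37% of all genes, and DESeq2 called 0, beside 1.28%. Before adjustment, nrde-3 was the 1 member with p under 0.05, beside 5.2% of all genes. The fed and fasted day 8 libraries overlapped in all 10 members, beside 2.28% of all genes without overlap. In the same-numbered day 8 pairs, prg-1, csr-1, ergo-1 and nrde-3 were lower in the fasted library in 4 of 4 pairs. How many of all genes did so was not counted. With the replicate number as a block within age, prg-1 (log2 fold change -0.15, adjusted p = 0.0487) and ergo-1 (-0.20, adjusted p = 0.0277) fell, beside 1.94% of all genes that fell. That block treats same-numbered day 8 libraries as pairs, which the correlations given under the processing of the data do not establish. Without day 8 libraries 1 and 2, alg-2, prg-1, ergo-1 and nrde-3 fell, by 0.18 to 0.29 on the log2 scale, beside 6.73% of all genes. That fit compared 2 fed with 2 fasted day 8 libraries, a set seen in the data. Over libraries 1 and 2, the log2 ratio of fasted over fed means was 0.03 for alg-2, -0.11 for prg-1, -0.12 for ergo-1 and -0.07 for nrde-3.

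The difference between the fasting responses (young minus day 8) was tested in the same model. It was negative and past the threshold for alg-2 and nrde-3, beside 12.6% of all genes that were lower and 13.4% that were higher. By edgeR 0 members were higher, although alg-3 and alg-4, the 2 with the largest differences (1.69 and 1.49 on the log2 scale, adjusted p 0.0765 and 0.131), had p under 0.05 before adjustment, beside 37.3% of all genes. DESeq2 also called 0 higher, beside 16.7% of all genes. Leaving out 1 library gave a higher call for alg-3 without fed day 8 library 1 or 2 or fasted day 8 library 4 (edgeR adjusted p 0.0116, 0.0267 and 0.0419) and for alg-4 without fed library 1 or fasted library 4 (0.0380 and 0.0119). It gave a lower call for rde-1 without fasted library 3 (-0.33, edgeR adjusted p = 0.0295). Leaving out fed day 8 library 3, where both sperm genes were highest, brought the difference down, to 0.82 for alg-3 (adjusted p = 0.283) and 0.81 for alg-4 (adjusted p = 0.406). Without day 8 libraries 3 and 4 it was 0.13 for alg-3 (adjusted p = 0.716) and 0.96 for alg-4 (adjusted p = 0.0164), and without libraries 1 and 2 it was 2.18 (adjusted p = 0.000113) and 1.60 (adjusted p = 0.00243). With the block within age the difference was called for alg-3 and alg-4 as higher and for alg-2, csr-1, ergo-1, rde-1, hrde-1 and nrde-3 as lower, beside 23.6% and 27.2% of all genes. The fits without libraries 1 and 2 or 3 and 4 use sets seen in the data, and the block uses pairs that are not shown.

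Between young adults and day 8, the 10 genes moved in different directions. In fed animals alg-1, alg-2, ergo-1 and nrde-3 rose and alg-3, alg-4 and csr-1 fell (edgeR), beside 30.8% of all genes that rose and 34.7% that fell. In fasted animals the calls were those same 7 genes in those directions, beside 31.2% and 36.9% of all genes. These 7 genes also had no overlap between the ages in either feeding state, beside 61.9% of all genes in fed and 64.7% in fasted animals, and prg-1, rde-1 and hrde-1 overlapped. The young fasting and the fed age comparisons share the fed young libraries, and all comparisons share the estimate of the spread.

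**Figure D2:**
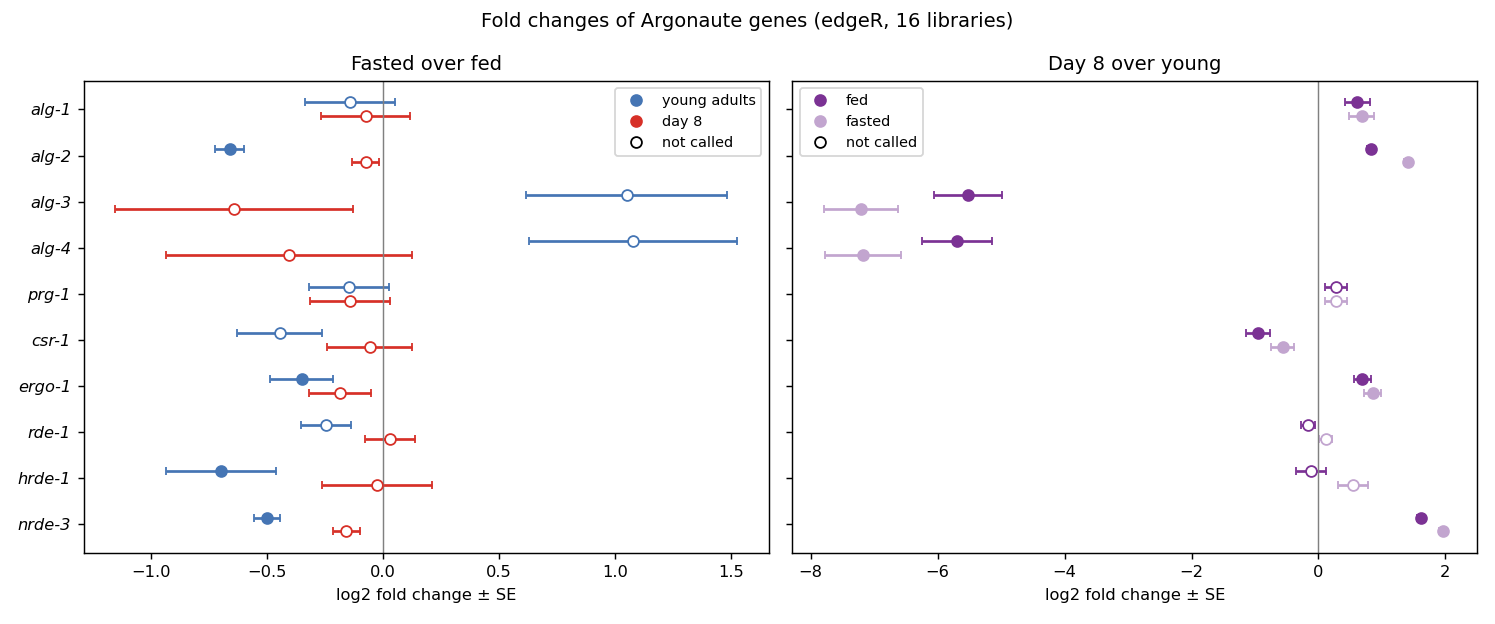
Log2 fold change ± SE of each Argonaute gene from the edgeR model over 16 libraries, fasted over fed at left and day 8 over young at right; filled points passed an adjusted p under 0.05 and open points did not. alg-3 and alg-4 lie to the right of 0 for fasting of young adults, at 1.05 and 1.08, and far to the left for age, from -7.21 to -5.52.

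The sperm Argonautes alg-3 and alg-4 are close relatives that act in male germ cells, where they are needed for full sperm fertility. alg-3 (WBGene00011910) lies on chromosome IV at 11704246 to 11708264, plus strand, and alg-4 (WBGene00006449) on chromosome III at 9887209 to 9891424, minus strand. Their sequences are alike, so counting may have split reads between them.

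alg-3 stood at 50.8, 50.7, 50.7 and 49.8 CPM in fed young libraries 1 to 4 and at 110.4, 104.5, 101 and 102 CPM in the fasted young libraries. The fasted libraries all lay above the fed ones, 2.07-fold between the means (50.5 ± 0.468 against 105 ± 4.12 CPM, SD, n = 4). This was a log2 fold change of 1.05 ± 0.43 (SE) with an adjusted p of 0.0632 over 16 libraries, and 1.07 with an adjusted p of 5.45e-14 over the 8 young libraries (edgeR). Over 16 libraries the gene also passed without fed day 8 library 1, 2 or 3 (adjusted p 0.0192, 0.0358 and 0.00974) and with the replicate block (adjusted p = 0.0496).

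alg-4 stood at 54.3, 50.99, 53.6 and 48.3 CPM in fed and at 113, 106, 107 and 113 CPM in fasted young libraries. The groups were apart, 2.11-fold in their means (51.8 ± 2.73 against 110 ± 3.96 CPM). In the test, the log2 fold change was 1.08 ± 0.45 with an adjusted p of 0.0645 over 16 libraries and 1.10 with an adjusted p of 4.94e-13 over the young libraries. It passed over 16 libraries without fed day 8 library 1, 2 or 3 or fasted day 8 library 4 (adjusted p 0.0247 to 0.0482) and with the replicate block (adjusted p = 0.0474).

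At day 8 both genes were near the bottom of the measured range. alg-3 was at 0.191, 0.376, 2.52 and 1.12 CPM in fed and 0.641, 0.478, 0.548 and 1.10 CPM in fasted day 8 libraries 1 to 4. alg-4 was at 0.215, 0.457, 2.04 and 1.12 CPM in fed and 0.368, 0.396, 0.473 and 1.67 CPM in fasted day 8 libraries. All day 8 libraries lay far below all young ones, and fed and fasted day 8 libraries overlapped. The log2 ratio of fasted over fed means of alg-3 was 0.98 over libraries 1 and 2 and -1.14 over libraries 3 and 4, and that of alg-4 was 0.18 and -0.56. The lowest library still held 16.3 expected counts of alg-3 and 18.0 of alg-4.

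The fall with age was the largest of the 10 genes in both feeding states. In fed animals the mean of alg-3 was 48.0-fold lower and that of alg-4 54.1-fold lower at day 8, with log2 fold changes of -5.52 ± 0.53 (adjusted p = 1.83e-07) and -5.70 ± 0.55 (adjusted p = 2.09e-07). Without fed day 8 library 3 these means were 89.7-fold and 86.7-fold lower. In fasted animals both means were 151-fold lower, with log2 fold changes of -7.21 ± 0.58 (adjusted p = 2.15e-08) and -7.18 ± 0.60 (adjusted p = 3.14e-08). Without fasted day 8 library 4 the mean of alg-4 was 266-fold lower. The log2 ratio of means of alg-3 with age was -7.48 over libraries 1 and 2 and -4.79 over libraries 3 and 4 in fed animals, and -7.59 and -6.95 in fasted animals.

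Transcripts of other sperm genes moved with this pair. Of 17 tested sperm markers, 8 rose and 0 fell with fasting in young adults (median log2 fold change 0.84), beside 21.2% and 21.1% of all genes. Beside 34.7% and 36.9% of all genes that fell, all 17 markers fell with age in fed and in fasted animals (medians -4.93 and -5.57). Their summed level was 320 to 331 CPM in fed young, 536 to 553 in fasted young, 8.50 to 18.3 in fed day 8 and 8.83 to 16.1 in fasted day 8 libraries, and no marker was at 0 in all libraries of a group. The part of sperm content in the values of alg-3 and alg-4 was not tested.

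The ratio of alg-4 to alg-3 per kb was near 1 in all 4 groups, at 0.970 ± 0.0438 in fed young, 0.991 ± 0.0387 in fasted young, 0.981 ± 0.167 in fed day 8 and 0.895 ± 0.381 in fasted day 8 libraries. No difference between groups passed: two-sided exact permutation p-values over 4 against 4 libraries were 0.514 for fasting in young adults, 0.571 for fasting at day 8, 1 for age in fed and 0.486 for age in fasted animals, and the smallest p this design allows is 0.0286. At day 8 the ratio spread from 0.543 to 1.44 between libraries, at the low counts given above.

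**Figure D3:**
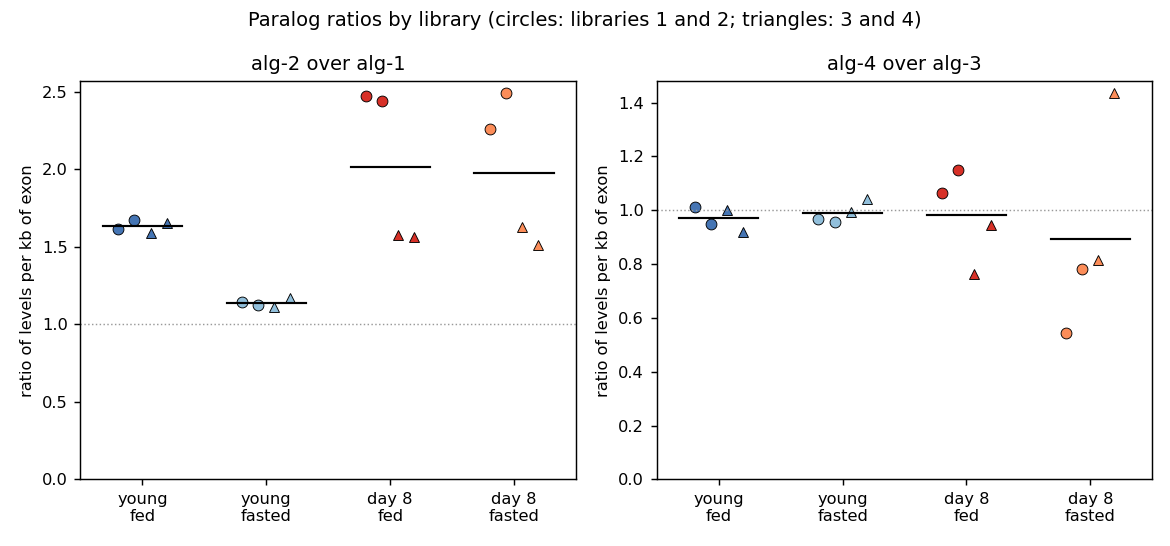
Ratio of the levels per kb of exon of alg-2 over alg-1 (left) and alg-4 over alg-3 (right) in each of the 16 libraries, with bars at the group means; the dotted line marks a ratio of 1. alg-2 over alg-1 runs from 1.59 to 1.67 in fed young and from 1.11 to 1.17 in fasted young libraries, while alg-4 over alg-3 overlaps between all groups.

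The microRNA Argonautes alg-1 and alg-2 load microRNAs, and worms need at least 1 of the pair to develop. alg-1 (WBGene00000105) is on chromosome X at 13949110 to 13956261, plus strand, and 96 of its exonic bases are shared with a snoRNA gene on that strand. alg-2 (WBGene00000106) is on chromosome II at 873212 to 879885, plus strand.

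alg-2 stood at 81.2, 79.8, 81.3 and 78.3 CPM in fed and at 50.1, 51.9, 48.8 and 51.8 CPM in fasted young libraries. Fasted young libraries lay well below fed ones (50.7 ± 1.497 against 80.2 ± 1.44 CPM), with a log2 fold change of -0.66 ± 0.06 (edgeR adjusted p = 2.89e-07). At day 8 it was at 140, 125, 150 and 152 CPM in fed and at 134, 137, 130 and 138 CPM in fasted libraries, which overlapped (log2 fold change -0.08 ± 0.06, adjusted p = 1.00). The response was 0.59 ± 0.09 lower on the log2 scale in young than in day 8 animals (adjusted p = 8.37e-05), and with library totals as the only scaling this difference was -0.38 and did not pass (adjusted p = 0.0685), where the all-gene median of the difference was 0.23 and not 0.03. Day 8 levels exceeded young levels in every library, by log2 fold changes of 0.82 ± 0.06 in fed (adjusted p = 8.57e-09) and 1.41 ± 0.06 in fasted animals (adjusted p = 1.87e-11).

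alg-1 moved less with fasting. It stood at 81.4, 77.3, 82.6 and 76.6 CPM in fed and at 70.7, 74.8, 70.8 and 71.6 CPM in fasted young libraries, a narrow gap without overlap (79.5 ± 2.97 against 72.0 ± 1.95 CPM). Its log2 fold change of -0.14 ± 0.19 did not pass over 16 libraries (adjusted p = 0.572), was -0.13 with an adjusted p of 0.00207 over the young libraries alone, and was 0.06 with library totals as the only scaling, under the all-gene median of 0.24 of that scaling. At day 8 the libraries split by number: 91.5, 82.8, 154 and 157 CPM in fed and 95.8, 88.7, 129 and 147 CPM in fasted libraries 1 to 4, with fed and fasted overlapping (log2 fold change -0.08 ± 0.19).

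All day 8 libraries of alg-1 lay above all young ones of the same feeding state. In fed animals the gap was very narrow, 82.8 CPM in day 8 library 2 against 82.6 CPM in young library 3. With age, the log2 fold change was 0.61 ± 0.19 in fed (edgeR adjusted p = 0.0113) and 0.68 ± 0.19 in fasted animals (adjusted p = 0.00576). The size differed between the same-numbered libraries, with a log2 ratio of means of 0.14 over libraries 1 and 2 and 0.97 over libraries 3 and 4 in fed animals, and 0.34 and 0.96 in fasted animals.

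Set against each other per kb of exon, alg-2 over alg-1 was 1.63 ± 0.0355 in fed young and 1.14 ± 0.0254 in fasted young libraries, 0.52 lower on the log2 scale (two-sided exact permutation p = 0.0286, the smallest this design allows, and 0.114 adjusted over 8 ratio tests). The young groups did not overlap in this ratio. It was 2.01 ± 0.513 in fed and 1.97 ± 0.478 in fasted day 8 libraries, which differed by -0.03 (exact permutation p = 0.8). Against young adults it was 0.27 higher in fed animals (exact permutation p = 0.429) and 0.76 higher in fasted animals (exact permutation p = 0.0286, 0.114 adjusted). At day 8 the ratio was 2.26 to 2.49 in libraries 1 and 2 and 1.51 to 1.63 in libraries 3 and 4.

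**Figure D4:**
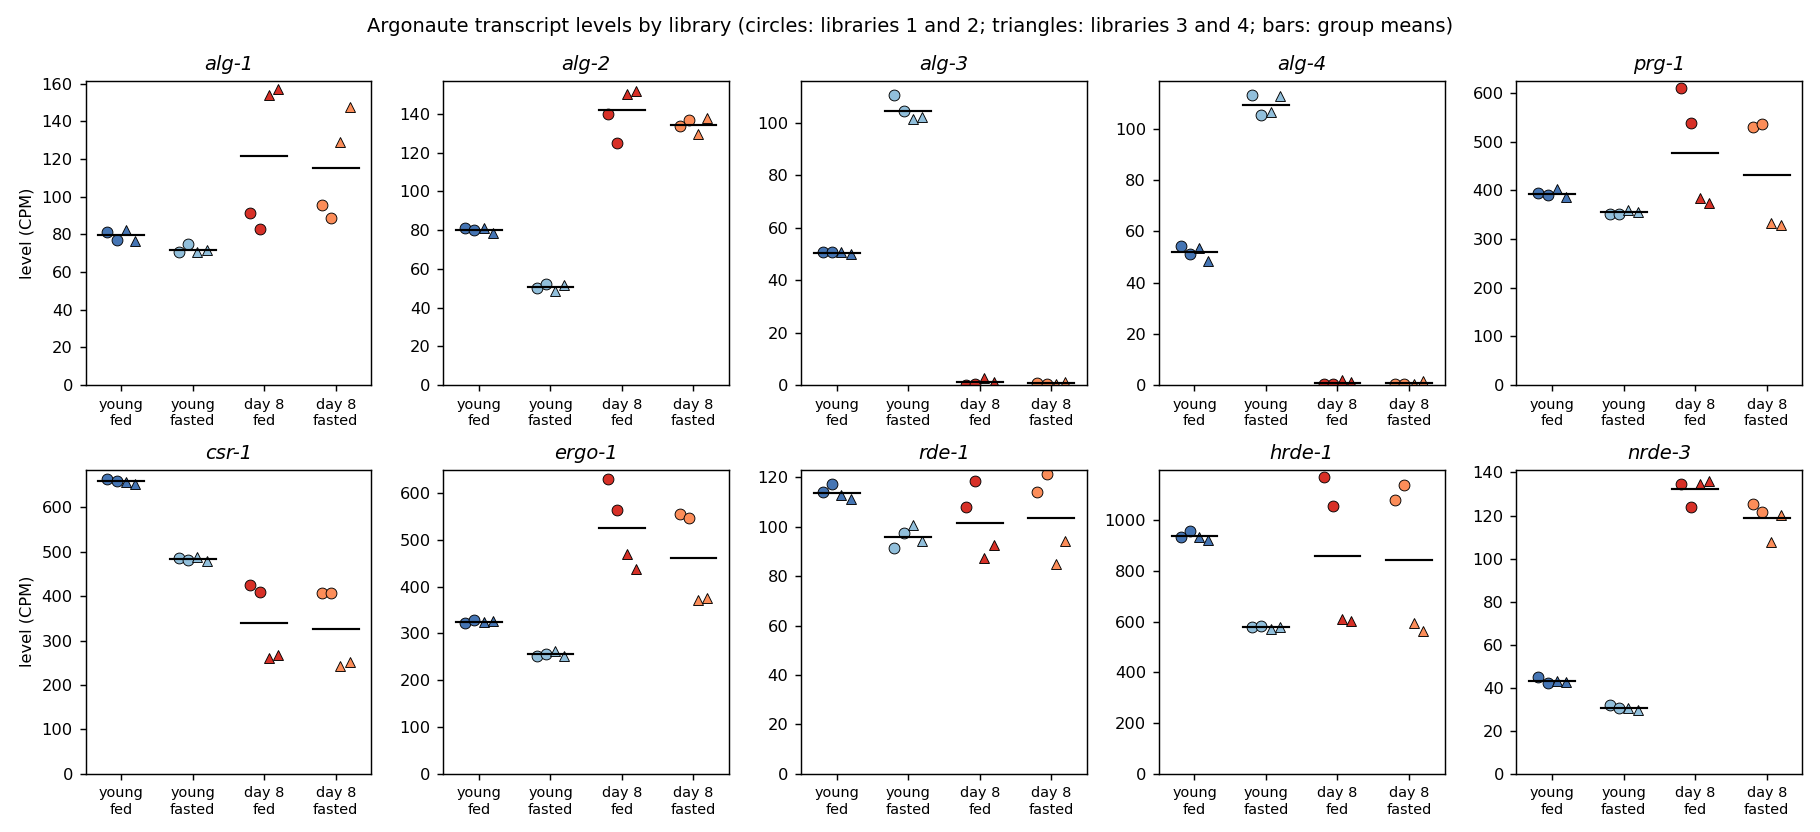
Level in CPM (linear axes that start at 0) of each Argonaute gene in each of the 16 libraries, with circles for libraries 1 and 2, triangles for libraries 3 and 4, and bars at the group means. In the young groups circles and triangles lie together, while at day 8 they lie apart for alg-1, prg-1, csr-1, ergo-1, rde-1 and hrde-1.

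The PIWI protein PRG-1 binds piRNAs in the germline and helps to tell foreign from own transcripts. prg-1 (WBGene00004178) is on chromosome I at 7585329 to 7588367, minus strand, with 12 exonic bases opposite a gene on the other strand. It stood at 395, 390, 403 and 385 CPM in fed and at 352, 352, 360 and 357 CPM in fasted young libraries. The groups did not overlap, with a small gap (394 ± 7.37 against 355 ± 3.89 CPM).

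With fasting of young adults, prg-1 changed by a log2 fold change of -0.15 ± 0.17 (edgeR adjusted p = 0.51) over 16 libraries and -0.13 (adjusted p = 2.75e-05) over the young ones; with library totals only it was 0.06, again under the all-gene median of 0.24. At day 8, prg-1 was at 611, 538, 384 and 374 CPM in fed and 530, 536, 333 and 329 CPM in fasted libraries, so that libraries 1 and 2 lay above all young libraries and libraries 3 and 4 below all young libraries of their feeding state. The change with age, 0.28 ± 0.17 in each feeding state on the log2 scale, did not pass over all libraries (adjusted p 0.172 in fed and 0.159 in fasted animals). It passed without day 8 libraries 3 and 4, at 0.56 in fed (adjusted p = 3.38e-09) and 0.57 in fasted animals (adjusted p = 2.16e-09), while without libraries 1 and 2 it was 0.05 in fed (adjusted p = 0.116) and -0.02 in fasted animals (adjusted p = 0.632). It also passed with DESeq2 (0.39, adjusted p = 0.0353, in fed and 0.37, adjusted p = 0.0429, in fasted animals), and without library 3 alone or 4 alone of either day 8 group in fed animals (adjusted p 0.0221 to 0.0450) and of the fasted day 8 group in fasted animals (adjusted p 0.0227 and 0.0252). The fits without libraries 1 and 2 or 3 and 4 use sets seen in the data. Their p-values do not cover the spread between the sets.

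CSR-1 is an essential germline Argonaute with siRNAs against transcripts that the germline expresses. csr-1 (WBGene00017641) is on chromosome IV at 7957267 to 7962157, plus strand, and 438 of its exonic bases are shared with frpr-10 on that strand, so part of its count may belong to that gene. It stood at 664, 660, 658 and 652 CPM in fed and at 486, 481, 489 and 478 CPM in fasted young libraries. Every fasted young library lay well below every fed one (484 ± 4.74 against 659 ± 4.82 CPM).

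In young fasting the log2 fold change of csr-1 was -0.45 ± 0.18, just short of a call (edgeR adjusted p = 0.061), and -0.43 with an adjusted p of 6.45e-12 over the young libraries. It also passed in the 16-library model without any of 7 day 8 libraries in turn, the exception being fasted library 1 (adjusted p 0.0231 to 0.0499), and with the replicate block (adjusted p = 0.0232). At day 8, csr-1 was at 425, 409, 260 and 268 CPM in fed and 408, 408, 242 and 251 CPM in fasted libraries, with both feeding states overlapping. Outside the sperm pair, csr-1 was the member that fell with age, by 0.95 ± 0.18 on the log2 scale in fed animals (adjusted p = 0.000285) and 0.56 ± 0.18 in fasted animals (adjusted p = 0.0126). In fasted animals the call was lost with library totals only (-0.27, adjusted p = 0.0517).

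The primary Argonautes ERGO-1 and RDE-1 bind siRNAs cut from double-stranded RNA. ERGO-1 does so for siRNAs made in oocytes and embryos, and RDE-1 for double-stranded RNA from outside the cell. ergo-1 (WBGene00019971) is on chromosome V at 1008803 to 1018352, plus strand, with 17 exonic bases opposite a gene on the other strand, and rde-1 (WBGene00004323) is on the same chromosome at 9987916 to 9991642, minus strand.

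ergo-1 stood at 322, 330, 323 and 327 CPM in fed and at 252, 255, 262 and 253 CPM in fasted young libraries. The fasted libraries were lower without overlap (255 ± 4.46 against 325 ± 3.38 CPM). This gave a log2 fold change of -0.35 ± 0.13 (edgeR adjusted p = 0.0476). This call was lost without any 1 of the 8 young libraries in turn (adjusted p 0.0613 to 0.0952) and with library totals only (-0.15, adjusted p = 0.0963), and over the young libraries alone the adjusted p was 7.04e-10.

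At day 8, ergo-1 was at 631, 565, 469 and 437 CPM in fed and 556, 547, 371 and 375 CPM in fasted libraries. All were above every young library, and the response to fasting did not pass (-0.19 ± 0.13 on the log2 scale, adjusted p = 1.00). With age it rose by a log2 fold change of 0.69 ± 0.14 in fed (adjusted p = 0.000319) and 0.86 ± 0.14 in fasted animals (adjusted p = 4.03e-05).

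rde-1 had the smallest ratio of the highest to the lowest group mean of the 10 genes, 1.19-fold. It stood at 114, 117, 113 and 111 CPM in fed and 91.4, 97.6, 101 and 94.3 CPM in fasted young libraries. The groups did not overlap (114 ± 2.68 against 96.0 ± 4.01 CPM), with a log2 fold change of -0.25 ± 0.11 (edgeR adjusted p = 0.0789) over 16 libraries and -0.23 (adjusted p = 6.29e-06) over the young ones. The 16-library test passed without fed day 8 library 2, 3 or 4 or fasted day 8 library 3 or 4 (adjusted p 0.0158 to 0.0410) and with the replicate block (adjusted p = 0.0396).

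At day 8, rde-1 was at 108, 118.7, 87.5 and 92.7 CPM in fed and 114, 121, 85.0 and 94.2 CPM in fasted libraries. These overlapped each other and the young libraries. The change with age was -0.16 ± 0.11 in fed (adjusted p = 0.199) and 0.11 ± 0.11 in fasted animals (adjusted p = 0.374) on the log2 scale, and with library totals only it was 0.35 in fed animals (adjusted p = 0.000129), where the all-gene median was 0.51. The age change also passed in fed animals without fed day 8 library 2 (-0.24, edgeR adjusted p = 0.0429) and in fasted animals without fasted day 8 library 3 (0.22, adjusted p = 0.0184).

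The nuclear Argonautes HRDE-1 and NRDE-3 carry secondary siRNAs into the nucleus, HRDE-1 in the germline, where it is needed for silencing to be inherited, and NRDE-3 mainly in somatic cells, downstream of ERGO-1. hrde-1 (WBGene00007624) is on chromosome III at 4172337 to 4176159, minus strand, and nrde-3 (WBGene00019862) on chromosome X at 372235 to 376900, plus strand.

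hrde-1 stood at 932, 959, 935 and 924 CPM in fed and at 580, 583, 570 and 580 CPM in fasted young libraries. This was the largest fall of the 10 in young fasting by its point estimate, 1.62-fold between the means (937 ± 14.9 against 578 ± 5.42 CPM). By edgeR, it was -0.70 ± 0.24 on the log2 scale (adjusted p = 0.0276). The call was lost without any 1 of the 4 fasted young libraries (adjusted p 0.0564 to 0.0602), and over the young libraries alone the adjusted p was 5.56e-14.

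At day 8, hrde-1 was at 1169, 1056, 609 and 604 CPM in fed and at 1078, 1138, 596 and 563 CPM in fasted libraries. Libraries 1 and 2 were above all young libraries and libraries 3 and 4 near the level of fasted young adults. The fasting response at day 8 was -0.03 ± 0.24 on the log2 scale (adjusted p = 1.00). Its difference from the young response, -0.67 ± 0.33, did not pass over all libraries (adjusted p = 0.158). That difference passed with the block within age (-0.66, adjusted p = 1.14e-06), without libraries 1 and 2 (-0.61, adjusted p = 1.60e-08) and without libraries 3 and 4 (-0.67, adjusted p = 1.36e-07). In these fits 27.2%, 23.6% and 24.5% of all genes were lower. The block uses pairs that are not shown, and the sets of day 8 libraries were seen in the data. These 3 p-values therefore do not establish the difference.

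The change of hrde-1 with age turned on which day 8 libraries were counted. Over all libraries it was -0.13 ± 0.24 in fed animals (adjusted p = 0.659). Without day 8 libraries 1 and 2 it was -0.52 (adjusted p = 3.53e-10), and without libraries 3 and 4 it was 0.26 (adjusted p = 1.91e-05). In fasted animals it was 0.55 ± 0.24 over all libraries (adjusted p = 0.0526), 0.09 without libraries 1 and 2 (adjusted p = 0.00955) and 0.93 without libraries 3 and 4 (adjusted p = 4.57e-12). It passed in fasted animals when any 1 of the 4 fed day 8 libraries, or fasted day 8 library 3 or 4, was left out (adjusted p 0.00791 to 0.0458). The fits without libraries 1 and 2 or 3 and 4 use sets seen in the data. Each set lies close together for hrde-1, at 1056 to 1169 CPM and 563 to 609 CPM. The p-values of those fits therefore do not cover the spread between the sets.

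nrde-3 stood at 44.8, 42.3, 43.3 and 42.8 CPM in fed and at 31.8, 30.3, 30.8 and 29.5 CPM in fasted young libraries. The fasted libraries were lower without overlap (30.6 ± 0.942 against 43.3 ± 1.07 CPM), with a log2 fold change of -0.50 ± 0.06 (edgeR adjusted p = 4.18e-06). At day 8 it was at 135, 124, 134 and 136 CPM in fed and 125, 122, 107 and 120 CPM in fasted libraries. The groups overlapped between 124 and 125 CPM, and the log2 fold change of -0.16 ± 0.06 did not pass (edgeR adjusted p = 0.584).

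The fasting response of nrde-3 was 0.34 ± 0.08 lower on the log2 scale in young than in day 8 animals (edgeR adjusted p = 0.00525), and with library totals only this was -0.14 (adjusted p = 0.403), beside the all-gene median of 0.23 given for alg-2. With age nrde-3 rose more than any other member, 3.06-fold between the means of fed and 3.88-fold between those of fasted animals. On the log2 scale these were 1.61 ± 0.06 (adjusted p = 3.18e-12) and 1.95 ± 0.06 (adjusted p = 3.88e-13). Unlike hrde-1, it rose alike in libraries 1 and 2 (log2 ratio 1.57 in fed and 1.99 in fasted animals) and in libraries 3 and 4 (1.65 and 1.92); the difference between these sets of libraries was not tested.

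The 2 sets of day 8 libraries differed in most members. Libraries 1 and 2 were above libraries 3 and 4 without overlap for hrde-1 (1110 against 593 CPM, means of 4 libraries), csr-1 (412 against 255), prg-1 (554 against 355), ergo-1 (575 against 413) and rde-1 (116 against 89.8). alg-1 went the other way, also without overlap, with 89.7 CPM in libraries 1 and 2 and 147 in libraries 3 and 4. So did alg-4, at 0.359 and 1.33 CPM, 3.69-fold higher in libraries 3 and 4, and the mean of alg-3 was 3.14-fold higher there with overlap (0.421 and 1.32 CPM). The 2 sets also overlapped for alg-2 (134 and 142 CPM) and nrde-3 (126 and 125 CPM). Libraries 3 and 4 also had more genes above 0 counts, 20363 to 20764 against 18993 to 19300 in libraries 1 and 2. Totals were 117.7 and 106.5 M in fed libraries 3 and 4 and 65.2 to 91.1 M in the other day 8 libraries. The sets were seen in the data and are not a group of the study, so they were not tested against each other.

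Summed oocyte markers were at 18730 to 20883 CPM in day 8 libraries 1 and 2 and at 11669 to 13401 CPM in libraries 3 and 4. Summed meiosis markers were at 3756 to 3984 and 2385 to 2632 CPM. Summed muscle markers were lower in libraries 1 and 2, at 498 to 703 against 821 to 1023 CPM, and so were neuron markers, at 218 to 222 against 245 to 260 CPM. Sperm markers, of the germline too, were also lower in libraries 1 and 2, at 8.50 to 9.58 against 11.1 to 18.3 CPM. Intestine markers overlapped, at 11369 to 15480 against 9251 to 12326 CPM. The part of these marker differences in the members' values was not tested.

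**Figure D5:**
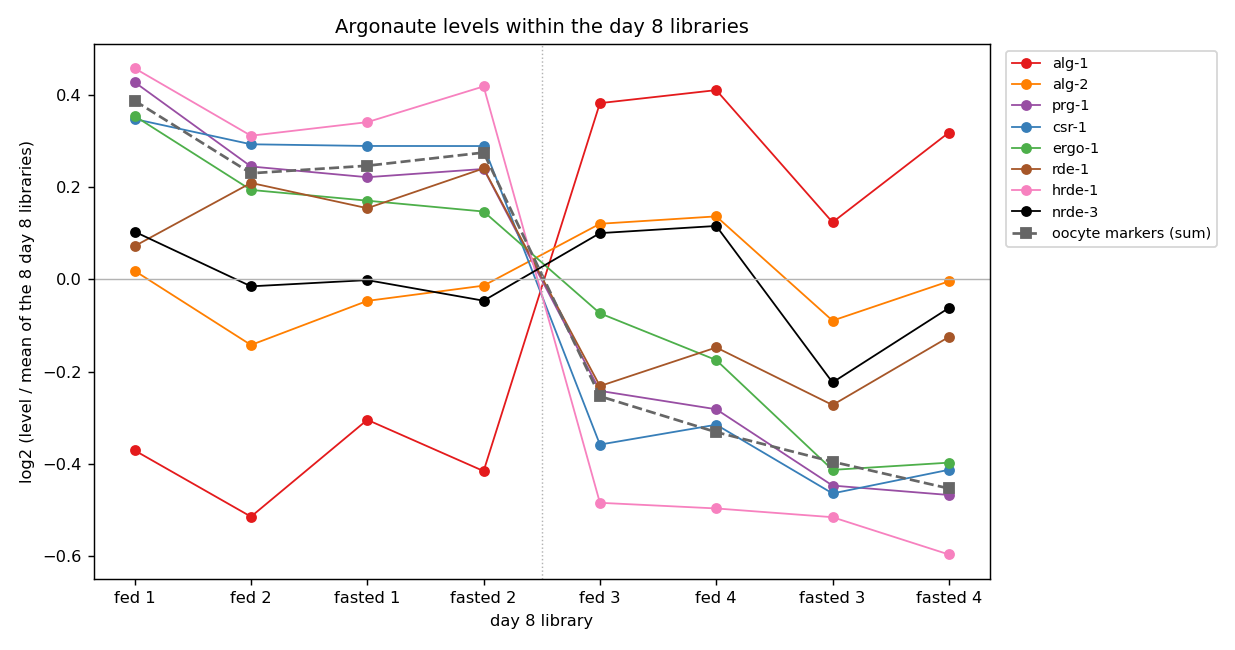
Level of 8 Argonaute genes and of the summed oocyte markers in each day 8 library, as log2 of the level over its mean in the 8 day 8 libraries; lines only join the points of a gene, since libraries have no order, and alg-3 and alg-4 are left out for their low levels. hrde-1, prg-1, csr-1, ergo-1 and rde-1 are above 0 in libraries 1 and 2 and below 0 in libraries 3 and 4, alg-1 is the reverse, and alg-2 and nrde-3 follow neither course.

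In young adults the oocyte markers were lower after fasting, and the meiosis markers showed few calls. Of 18 oocyte markers, 9 fell and 0 rose, beside the 21.1% and 21.2% of all genes given above (median log2 fold change -0.49), and their sum went from between 14562 and 15257 CPM in fed to between 10440 and 10618 CPM in fasted libraries. Of 22 meiosis markers, 2 fell and 1 rose (median -0.08, sums of 3382 to 3438 and 3045 to 3093 CPM). With age, 30.8% of all genes rose and 34.7% fell in fed animals, and 31.2% and 36.9% in fasted animals. Beside these, 4 of 18 oocyte markers rose in fed and 13 in fasted animals and 0 fell. Early embryo markers rose in 5 of 7 in fed and 6 of 7 in fasted animals, with sums of 1.55 to 1.66 CPM in fed young and 19.9 to 21.8 CPM in fed day 8 libraries. All 5 muscle markers fell in both feeding states. Of 5 intestine markers, 5 fell in fed and 4 in fasted animals, and 4 of 5 pharynx markers fell in both. Of 5 hypodermis markers 3 fell and 1 rose in both, and of 5 neuron markers 2 rose and 1 fell in both. The part of these shifts in the lower levels of hrde-1, csr-1, prg-1 and ergo-1 in fasted young adults, and in the age changes, was not tested.

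Other Argonaute genes and partners of the 10 were counted from lists of pathway genes. The shares of all genes beside every list are these. In young fasting 21.2% rose and 21.1% fell (edgeR), and at day 8 edgeR called 0.37% and DESeq2 1.28% with fasting. With age 30.8% rose and 34.7% fell in fed animals, and 31.2% and 36.9% in fasted animals. No list was tested as a set against these shares. Of 13 other Argonautes, 10 had an ID and all 10 were tested. In young fasting, wago-10 (log2 fold change 1.45 ± 0.38, edgeR adjusted p = 0.00678) and sago-1 (0.56 ± 0.10, adjusted p = 0.000395) rose, and sago-2 (-2.04 ± 0.21, adjusted p = 1.11e-06) and vsra-1 (-0.26 ± 0.05, adjusted p = 0.000754) fell. sago-1 and sago-2 both act with secondary siRNAs in RNAi, and they moved in opposite directions, sago-1 from 59.0 ± 0.978 to 87.1 ± 1.90 CPM and sago-2 from 13.4 ± 1.04 to 3.25 ± 0.668 CPM. Their young minus day 8 differences were also called in opposite directions, at 0.63 (adjusted p = 0.00442) and -1.60 (adjusted p = 0.000589). At day 8, 0 of the 10 passed by edgeR and 0 by DESeq2, and 1 had an unadjusted p under 0.05.

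With age, vsra-1 rose in fed animals (log2 fold change 0.57, adjusted p = 9.58e-08) and wago-10 (-2.49, adjusted p = 5.39e-05) and sago-2 (-0.68, adjusted p = 0.00716) fell. wago-10 moved in the directions of alg-3 and alg-4 with young fasting and with age, with means of 6.59 CPM in fed young, 18.0 in fasted young, 1.15 in fed day 8 and 1.18 in fasted day 8 libraries. Its fall with age in fed animals was smaller than those of alg-3 and alg-4 (log2 fold changes -5.52 and -5.70). In fasted animals 3 of the other Argonautes rose and 3 fell with age.

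Of 10 microRNA factors, 4 fell and 0 rose in young fasting. They were tsn-1, a nuclease found with the silencing complex (log2 fold change -1.08, edgeR adjusted p = 0.000128), the microRNA processing genes drsh-1 (-0.34, adjusted p = 0.0207) and pash-1 (-0.34, adjusted p = 0.0285), and dcs-1 (-0.33, adjusted p = 0.0383). With age in fed animals 5 rose and 4 fell, among them ain-1 (1.06, adjusted p = 1.28e-05) and ain-2 (0.40, adjusted p = 1.53e-05), which encode the partners that ALG-1 and ALG-2 need to silence a target. In fasted animals 4 rose and 1 fell.

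Of 14 tested piRNA factors, 2 rose and 2 fell in young fasting: parn-1, which trims piRNA ends (0.43, adjusted p = 0.00142), and henn-1, which methylates them (0.29, adjusted p = 0.0252), were higher, and erh-2 (-0.50, adjusted p = 0.000534) and tofu-4 (-0.49, adjusted p = 0.0317) were lower. With age 2 rose and 3 fell in fed animals, including parn-1 (-0.83, adjusted p = 9.07e-07), and 5 rose and 2 fell in fasted animals. prg-1 itself did not pass in these comparisons over the 16 libraries. The summed level of the 14 piRNA factors was 847 to 872 CPM in fed and 780 to 797 CPM in fasted young libraries. At day 8, fed and fasted, it was 995 to 1016 CPM in libraries 1 and 2 and 703 to 763 CPM in libraries 3 and 4.

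Of 9 genes of Dicer and its ERI complex, 1 fell in young fasting, the double-stranded RNA binding gene rde-4 (-0.63, adjusted p = 0.00183), and 0 rose. With age 3 rose and 0 fell in fed animals, namely dcr-1, eri-1 and eri-5 (log2 fold changes 0.34, 0.49 and 0.77), and 6 rose and 0 fell in fasted animals. ergo-1, whose siRNAs this complex makes, rose in both as given above. The summed level of the 9 genes was 903 to 932 CPM in fed and 834 to 845 CPM in fasted young libraries. At day 8, fed and fasted, it was 1150 to 1194 CPM in libraries 1 and 2 and 875 to 930 CPM in libraries 3 and 4.

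Of 19 secondary siRNA factors, 3 fell and 0 rose in young fasting: simr-1 (-0.85, adjusted p = 0.00076), the RNA-dependent RNA polymerase gene rrf-1 (-0.51, adjusted p = 0.0281) and mut-14 (-0.59, adjusted p = 0.029). With age 5 rose and 1 fell in fed animals, with nyn-2 the most (1.03, adjusted p = 1.90e-08), and 12 rose and 0 fell in fasted animals. The median age change of the list was 0.25 in fed and 0.39 in fasted animals, against all-gene medians of -0.01 and -0.05. The day 8 sets differed in the summed level of the list. It was 2043 to 2063 CPM in fed young libraries and 2486, 2559, 1869 and 1872 CPM in fed day 8 libraries 1 to 4. In fasted animals it was 1793 to 1848 CPM in young libraries and 2485, 2537, 1779 and 1775 CPM in day 8 libraries 1 to 4.

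Of 9 nuclear RNAi partners, nrde-1 rose in young fasting (0.44, adjusted p = 0.000105) and 4 fell, among them the histone methyltransferase gene set-25 (-0.61, adjusted p = 0.000107), the HP1 gene hpl-2 (-0.41, adjusted p = 0.00202) and morc-1 (-0.49, adjusted p = 0.0207). With age set-25 (0.64, adjusted p = 2.57e-05) and nrde-1 (0.44, adjusted p = 3.88e-05) rose in fed animals, and 5 rose and 0 fell in fasted animals. The summed level of these 9 partners was 1095 to 1129 CPM in fed young libraries and 1323, 1310, 1064 and 1099 CPM in fed day 8 libraries 1 to 4. In fasted animals it was 1023 to 1062 CPM in young libraries and 1299, 1315, 1011 and 1052 CPM in day 8 libraries 1 to 4. In each of the lists of microRNA, piRNA, Dicer, secondary siRNA and nuclear RNAi genes, edgeR and DESeq2 each called 0 genes with fasting at day 8, with 1 unadjusted p under 0.05 among the microRNA factors and 0 in the others.

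Across the 16 libraries the members fell into sets with like courses, described here by Pearson's r of log2 CPM, which all libraries of a group share in part through the group means. r was 0.997 between alg-3 and alg-4, 0.976 between alg-2 and nrde-3, 0.890 between rde-1 and hrde-1, 0.858 between prg-1 and hrde-1 and 0.780 between alg-1 and alg-2. It was -0.864 between alg-1 and csr-1.

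Among 5199 genes with a lettered symbol and a mean of at least 10 CPM, those most like each member over the 16 libraries were sought by the same measure. For alg-3 they were cylc-2 (r = 0.997), moa-1 and nspd-3, and for alg-4 they were spch-3 (r = 0.998), cylc-2 and clec-73. For alg-2 the nearest were sel-12 (r = 0.995), zoo-1 and sec-3, for nrde-3 pqn-65 (r = 0.998), citk-1 and cam-1, and for alg-1 lin-33 (r = 0.983), inso-1 and spc-1. For prg-1 they were ect-2 (r = 0.995), larp-5 and dbn-1, for csr-1 ndk-1 (r = 0.993), cra-1 and iffb-1, and for hrde-1 herd-1 (r = 0.995), ima-2 and hil-4. For ergo-1 they were unc-40 (r = 0.996), slc-17.2 and mbk-2, and rde-1 had the least close neighbours, natc-1 (r = 0.962), ints-2 and dnj-17.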

How the data were processed

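The authors deposited expected counts per gene, a unit named here from the values, which are not whole and differ in total between libraries. Per the submitters' processing notes, the tool DESeq and the genome build WBcel235 were used; for the aligner, counter, versions and use of strand, nothing is given in the sources used here. Symbols and positions came from the WBcel235 annotation, release 115.

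Counts were rounded, filtered with filterByExpr (17844 genes kept, 4038 removed), scaled with TMM and fitted with edgeR 4.0.16 (R 4.3.3), with 1 mean per group over all 16 libraries. The quasi-likelihood test was adjusted over all tested genes with the Benjamini-Hochberg method, and SE was derived from F. Adjusted p-values in the report come from this edgeR fit unless DESeq2 1.42.0 is named. Paralog ratios were tested with exact permutations (scipy 1.17.1). The test was checked on simulated counts with 1 spread per gene in all groups. That check does not cover the larger spread at day 8. All members were named, plus up to 4 genes per list with the smallest adjusted p and the 3 genes of most similar course per member. Members and lists were chosen with earlier results of these data known.

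Replicate numbers were checked for pairing. Deviations of same-numbered fed and fasted libraries correlated at 0.33 to 0.56 at day 8, where each pair passed 0.1, and at -0.00 to 0.04 in young adults. By that threshold only the day 8 fasting comparison would count as paired. The main fit used no pairing in any comparison, and blocks on the number were run only as alternatives. Different-numbered day 8 libraries correlated at up to 0.67. Fed day 8 library 1 correlated more with another fasted number than with its own (0.49 against 0.42), as did library 3 (0.67 against 0.33). Whether the numbers name pairs is therefore not shown.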

Additional observations from a re-analysis of the deposited data

Results flagged for a closer look

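In 3 of 40 member and group sets, 1 library lay far from the other 3, with a gap over the range above the critical value for 4 libraries; chance alone gives about 1 in 20. Fed young library 4 was lowest for alg-3 (49.8 CPM against 50.7 to 50.8, gap over range 0.903), within a range of about 1 CPM. Fasted day 8 library 4 was highest for alg-4 (1.67 CPM against 0.368 to 0.473, gap over range 0.919). Fed day 8 library 2 was lowest for nrde-3 (124 CPM against 134 to 136, gap over range 0.876).

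The fasting response differed between the ages, by the test of the difference itself, for alg-2 (-0.59 on the log2 scale, young minus day 8) and nrde-3 (-0.34).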

How the results depend on the processing

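Each of 50 member results (10 genes, 5 comparisons) was recomputed under the alternatives. Of 620 values without leaving out single libraries, 510 kept their direction and side of the threshold, 4 lost the call, 81 gained it and 25 changed sign. Of these 25, 2 were called with the new sign, rde-1 with age in fed animals with library totals only (0.35) and hrde-1 with age in fed animals without day 8 libraries 3 and 4 (0.26), and 23 were called with neither sign. With library totals these 23 held alg-1 and prg-1 in young fasting (0.059 and 0.055), alg-1, prg-1 and ergo-1 in the difference of the responses (0.14, 0.20 and 0.041) and hrde-1 with age in fed animals (0.37). Without day 8 libraries 3 and 4 they held alg-1, alg-2, alg-3 and alg-4 in day 8 fasting (0.076, 0.024, 0.93 and 0.14) and rde-1 with age in fed animals (0.0070). Without libraries 1 and 2 they held rde-1 in day 8 fasting (-0.011), alg-1 and prg-1 in the difference (0.044 and 0.066), and prg-1 and rde-1 with age in fasted animals (-0.015 and -0.011). The difference of prg-1, near 0, also changed sign with RLE factors (0.016), upper quartile factors (0.051), no filter (0.029), DESeq2 (0.016), counts divided by 2 (0.0010) and the replicate block within age (0.0031), and hrde-1 with age in fed animals with upper quartile factors (0.0077).

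Of 800 values that left out 1 library, 720 kept both, 12 lost the call, 39 gained it and 29 changed sign, with a call under neither sign. Those were in day 8 fasting for alg-1 (-0.26 to 0.077), alg-3 (-1.05 to 0.24), alg-4 (-1.33 to 0.28), csr-1 (-0.18 to 0.064), rde-1 (-0.057 to 0.11) and hrde-1 (-0.21 to 0.16), in the difference for alg-1 (-0.20 to 0.13) and prg-1 (-0.14 to 0.12), and with age in fed animals for hrde-1 (-0.31 to 0.048). Library totals moved the all-gene median by more than 0.1, to 0.24 in young fasting, 0.23 in the difference, 0.51 with age in fed and 0.28 in fasted animals, and RLE and upper quartile factors moved it to 0.10 and 0.14 with age in fed animals.

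For young fasting, 2 members were called higher, against 0, with counts divided by 2, in the fit to the compared libraries only, with the replicate block, with the replicate block within age and without day 8 libraries 1 and 2 or 3 and 4, beside 23.3% to 38.3% of all genes against 21.2% (0 to 2 when leaving out 1 library). 8 were called lower, against 4, with the compared libraries only, the block within age and without either set of day 8 libraries, beside 31.8% to 36.3% of all genes against 21.1% (2 to 6 when leaving out 1 library). For day 8 fasting, 2 were called lower, against 0, with the block within age (1.94% of all genes) and 4 without day 8 libraries 1 and 2 (6.73%). For the difference of the responses, 2 were called higher with the block within age, 2 without day 8 libraries 1 and 2 and 1 without 3 and 4, against 0, beside 20.6% to 24.2% of all genes against 13.4% (0 to 2 when leaving out 1 library); the counts called lower, against 2, were 0 with library totals, 6 with the block within age, 5 without libraries 1 and 2 and 7 without libraries 3 and 4, beside 9.52%, 27.2%, 23.6% and 24.5% of all genes against 12.6%. With age, 5 were called lower in fed animals without day 8 libraries 1 and 2, against 3 (7022 of 18462 genes against 34.7%), and 7 were called higher in fasted animals with upper quartile factors, with library totals and without day 8 libraries 3 and 4, against 4, beside 36.4%, 44.6% and 36.5% of all genes against 31.2% (4 to 7 when leaving out 1 library). The block changed no other count by over 1.5 times.

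The ratio of alg-2 to alg-1 in young fasting was -0.52 with a paired p of 0.125 under the replicate block (exact sign flips, the smallest p that 4 pairs allow) and -0.53 to -0.51 when leaving out 1 library (exact permutation p = 0.0571, the smallest that 3 against 4 allow). With age in fasted animals it was 0.76 with a paired exact p of 0.125 and 0.64 to 0.88 when leaving out 1 library (exact permutation p = 0.0571). When leaving out 1 library, sign changes with no call were also seen in the ratios of alg-2 to alg-1 in day 8 fasting (-0.15 to 0.092) and of alg-4 to alg-3 in day 8 fasting (-0.46 to 0.0034) and with age in fed animals (-0.081 to 0.12). Counts limit the day 8 values of alg-3 and alg-4, with 16.3 and 18.0 expected counts in the lowest library, and of no other member, whose lowest count was 1605 (nrde-3). The cause of these changes was not tested.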

Other observations

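Germ granules are the perinuclear bodies in which several of the Argonautes meet their targets. Of 16 germ granule genes, 4 fell and 0 rose with fasting in young adults: meg-3 (log2 fold change -0.78, edgeR adjusted p = 0.00156), the Vasa-like helicase gene glh-1 (-0.68, adjusted p = 0.00218), mip-1 (-0.71, adjusted p = 0.00553) and mip-2 (-0.53, adjusted p = 0.0197). At day 8 edgeR and DESeq2 called 0 of them with fasting, and 0 had an unadjusted p under 0.05. With age in fed animals 5 fell and 1 rose. glh-1 (-1.28, adjusted p = 2.41e-06), car-1 (-0.75, adjusted p = 0.00258) and znfx-1 (-0.52, adjusted p = 0.00138) fell and meg-4 rose (0.60, adjusted p = 0.00952). In fasted animals 4 rose and 4 fell. Beside these counts, 21.2% of all genes rose and 21.1% fell in young fasting. With age 30.8% rose and 34.7% fell in fed animals, and 31.2% and 36.9% in fasted animals. The summed level of the germ granule genes at day 8 was 6411 to 6848 CPM in libraries 1 and 2 and 3870 to 4179 CPM in libraries 3 and 4. This was the same direction as hrde-1, csr-1 and prg-1.

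Of 8 genes that move double-stranded RNA into and between cells, sid-5 rose with fasting in young adults (0.67, adjusted p = 0.000437) and haf-6 (-0.70, adjusted p = 0.00057) and sid-3 (-0.37, adjusted p = 0.000481) fell. At day 8 edgeR and DESeq2 called 0, and 1 had an unadjusted p under 0.05. With age 4 rose and 1 fell in both feeding states, the fall being that of haf-6 (-1.49, adjusted p = 9.80e-08, in fed animals). The shares of all genes given for the germ granule genes apply to these counts too.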
